A study of Mus musculus with 6 samples.

Results

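The collagen genes were examined as a group in the brains of male mice with and without an activated human SRY transgene. Collagen probes were taken as all probes whose gene symbol has the form of a collagen chain, that is Col, a type number, the letter a and a chain number. This rule found 58 probes of 36 gene symbols among the 25697 probes of 18138 symbols in the deposited table, and it used names alone and no measured value. The fibrillar class (Col1, Col3 and Col5) held 7 probes of 6 symbols, the basement membrane class (Col4 and Col18) held 12 probes of 7 symbols, and the remaining 39 probes of 23 symbols were kept apart as other collagens.

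Whole brains of FVB males (on the FVB/N background per the study's methods) at P6 (postnatal day 6) were hybridized to Illumina MouseRef-8 v2.0 bead arrays, with 3 hSRY-OFF and 3 hSRY-ON mice. Mice of both groups carried a single copy of the Signalox-hSRY transgene at the H11 locus, in which the CAG promoter is followed by a DsRed2 cassette between loxP sites and then by a FLAG-tagged human SRY gene with an IRES and EGFP. In hSRY-OFF mice this transgene was unrecombined. In hSRY-ON mice the cassette had been removed in the single-cell embryo by Cre protein that a Ddx4-Cre mother left in the oocyte, and the hSRY-ON mice used here had not inherited the Ddx4-Cre transgene itself. The CAG promoter acts in nearly all cell types and the recombination was not restricted to the brain, so an effect that arose in brain cells cannot be told apart from one that arose elsewhere in the body. By the paper's account, carrier pups of a Ddx4-Cre mother are recombined with or without inherited Cre, so hSRY-OFF carriers would have had other mothers. A difference of mother or litter therefore cannot be told apart from recombination. The paper also reports hSRY-ON growth retardation by P6, a lack of milk in the stomach (shown at a later age) and smaller brains. Effects of growth and feeding cannot be told apart from direct effects of the transgene either. The array is designed for mouse transcripts, and the human SRY transcript was not analysed here.

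Collagens are secreted proteins built from 3 chains wound into a triple helix. The fibrillar types I, III and V assemble into the fibrils of connective tissue, and in the brain they belong mainly to the meninges, which cover the organ, and to the walls of larger vessels. Type IV collagen forms the network of basement membranes, which surround every brain capillary, and type XVIII is a basement membrane collagen that carries heparan sulfate chains. Type II collagen is also fibril-forming and is best known from cartilage, but the naming rule places it with the other collagens.

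The deposited median signal intensity was 200 to 220 on the 6 arrays, and 13816 to 14377 probes per array had a detection p-value under 0.05, which gives the fraction of negative controls that matched or exceeded the signal of the probe. All values below are log2 signals after background correction and quantile normalization, and limma tests covered the probes that were detected on 3 or more arrays. Correlations between arrays across the 14215 tested probes were 0.986 to 0.994, and no pair of arrays was identical. The hSRY-ON arrays differed in their distance from the control group: array 1 had a mean correlation of 0.987 with the hSRY-OFF arrays, whereas arrays 2 and 3 had 0.989. Leaving out hSRY-ON array 3 raised the number of called probes over the whole array from 308 to 417, and leaving out any other array lowered it to 0 or 1. Values without hSRY-ON array 3 are therefore given for many of the collagens below. That array was singled out by the number of calls, so adjusted p-values without it show dependence on 1 array and add no evidence.

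Of the 58 collagen probes, 26 (44.8%) were detected on at least 3 arrays, against 55.3% of all probes. They belonged to 21 of the 36 symbols. A further 25 probes were detected on no array and 7 on 1 or 2 arrays. Among fibrillar probes 4 of 7 were tested, among basement membrane probes 6 of 12, and among other collagens 16 of 39. The number of collagen probes detected on a single array was 24, 27 and 26 in hSRY-OFF and 25, 26 and 27 in hSRY-ON, so the groups overlapped in how many collagens they detected.

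**Figure D1:**
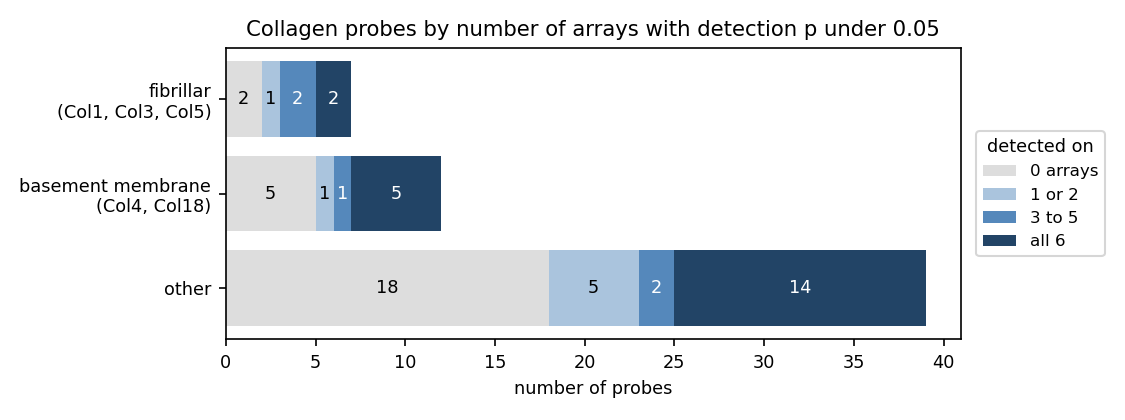
Number of collagen probes (horizontal axis) in each class (vertical axis), split by how many of the 6 arrays had a detection p-value under 0.05. Undetected probes made up 18 of the 39 other collagens, 5 of the 12 basement membrane probes and 2 of the 7 fibrillar probes.

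The chains that were not detected included some partners of detected ones. Type I collagen is normally made of Col1a1 and Col1a2 chains, and the Col1a1 probe was detected on all arrays while the Col1a2 probe was detected on none. The Col5a2 probe was likewise detected on no array, as were the probes of Col4a3 and Col4a4, whose chains are known from the kidney glomerulus. In the class of other collagens 11 symbols had no tested probe, among them Col10a1, the collagen of hypertrophic cartilage, and Col17a1, a transmembrane collagen of the skin. A bead array probe can be below background because its oligonucleotide hybridizes poorly, so these probes give no level and were given no fold change.

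Across the tested collagens, 1 probe differed between the groups at an adjusted p under 0.05, and it was lower in hSRY-ON. This probe measures Col2a1. Over the whole array 1.32% of tested probes were called lower and 0.844% higher, and no collagen probe was called higher. At an unadjusted p under 0.05 in the same limma fit, 6 collagen probes were lower, against 10.9% of all tested probes, and 1 was higher, against 10.1% of all. The 3 hSRY-ON values lay wholly below the 3 hSRY-OFF values for 6 of the 26 collagen probes, where 14.2% of all tested probes did so, and wholly above for 0, where the share of all was 13.5%.

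The collagen log2 fold changes, hSRY-ON minus hSRY-OFF, ran from -0.69 to 0.34 with a median of -0.094, which became -0.18 when hSRY-ON array 3 was left out and -0.054 when array 1 of that group was. Over all tested probes the median was 0.0048 and the quartiles were -0.14 and 0.14. Negative values were found for 18 of 26 collagen probes (69.2%) against 48.9% of all tested probes. The median was -0.25 for the 4 fibrillar probes, -0.13 for the 6 basement membrane probes and -0.066 for the 16 other probes, and the last of these was -0.17 without hSRY-ON array 3. By array, the median shift of the 26 collagen probes from their hSRY-OFF means was -0.20, -0.14 and -0.02 on hSRY-ON arrays 1 to 3 and -0.05, -0.01 and 0.02 on the hSRY-OFF arrays. Array 3 of hSRY-ON thus lay within the range of the control arrays over all collagens, and arrays 1 and 2 lay below it. In the fibrillar class the hSRY-ON arrays had -0.32, -0.26 and -0.12, against -0.003, -0.06 and -0.01 in hSRY-OFF. The basement membrane class had -0.11, -0.03 and -0.11 against -0.01, 0.03 and -0.02. In both of these classes every hSRY-ON array lay below all controls. Among the other collagens hSRY-ON array 3 was at -0.001, within the control range of -0.09 to 0.03.

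**Figure D2:**
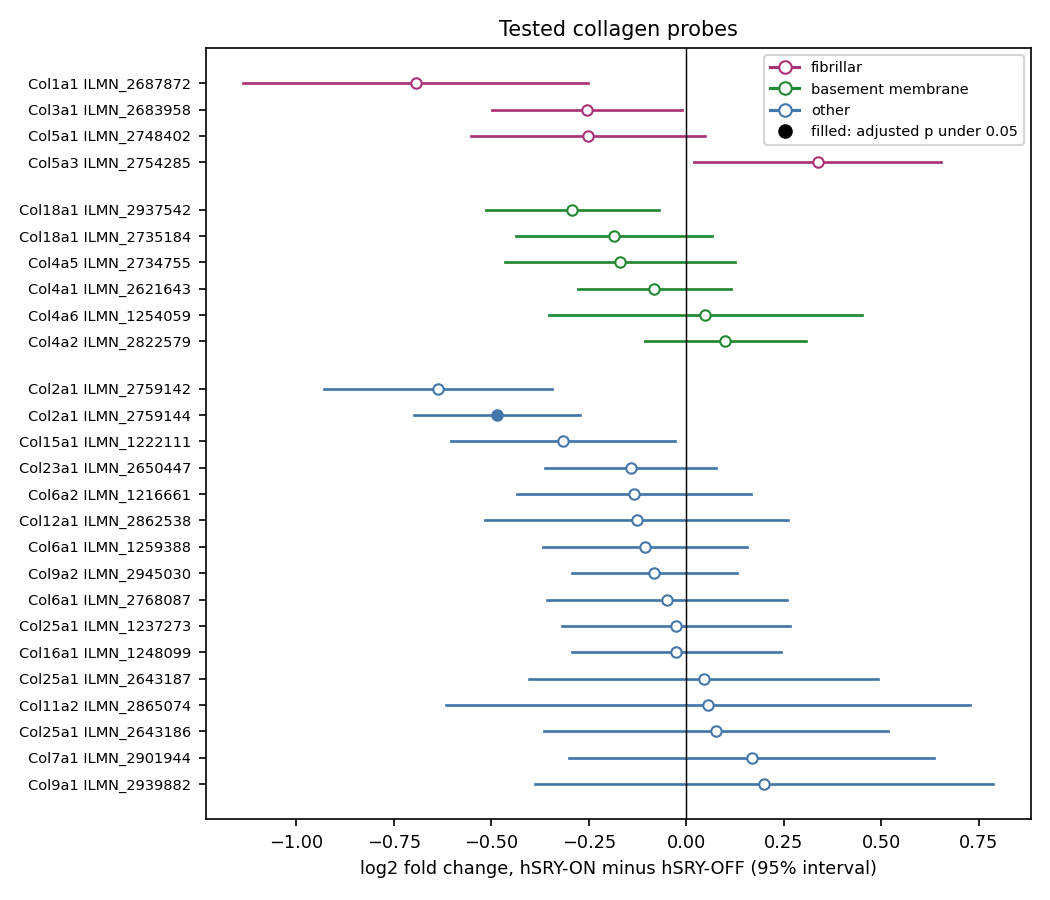
Log2 fold change of the 26 tested collagen probes (horizontal axis, hSRY-ON minus hSRY-OFF) with 95% intervals from the limma fit, by class. The filled point is the Col2a1 probe ILMN_2759144, called at an adjusted p of 0.0479, and most intervals of the basement membrane and other classes span 0.

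Among the fibrillar collagens, the Col1a1 probe had the lowest fold change of any tested collagen probe but was not called. Col1a1 encodes the main chain of type I collagen, the principal fibril protein of connective tissue. Its signal (probe ILMN_2687872) was 9.20, 9.17 and 9.34 on the hSRY-OFF arrays and 8.19, 8.48 and 8.96 on the hSRY-ON arrays. The groups did not overlap, and the hSRY-ON values were spread widely, with array 1 lowest and array 3 closest to the controls. The deposited intensities, which include background, were 826, 719 and 770 in hSRY-OFF and 450, 487 and 623 in hSRY-ON. The log2 fold change was -0.69 (SE 0.19, 95% interval -1.14 to -0.25), which is 61.8% of the hSRY-OFF level on the corrected scale. The limma adjusted p was 0.102 (unadjusted p 0.0074), and over the 16 alternatives it ranged from 0.00694 to 0.223, with a call in 4 of them. Without hSRY-ON array 3 the fold change was -0.90 with an adjusted p of 0.0289. Leaving out any of the other arrays gave an adjusted p of 0.191 to 0.223. In whole brain, fewer cells of a type and less RNA in each cell cannot be told apart.

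Col3a1 encodes the chain of type III collagen, which accompanies type I in extensible tissues. Its probe ILMN_2683958 was near background, at 5.80, 5.61 and 5.65 in hSRY-OFF and 5.41, 5.59 and 5.30 in hSRY-ON, and it was detected on 3 hSRY-OFF arrays and 1 hSRY-ON array. These values did not overlap, but the gap between the nearest arrays was small. The log2 fold change of -0.25 (SE 0.10) had an adjusted p of 0.223, and it shrank to -0.067 without background correction and -0.12 with an offset of 50. The other Col3a1 probe, ILMN_1258629, was detected on 1 array and was not tested.

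Type V collagen regulates the diameter of type I fibrils. Col5a1 was at 8.9995, 8.92 and 8.99 in hSRY-OFF and at 8.60, 8.55 and 8.99 in hSRY-ON. Arrays 1 and 2 of hSRY-ON were below all controls and array 3 lay among them. The fold change was -0.25 (SE 0.13) with an adjusted p of 0.307, and without hSRY-ON array 3 it was -0.39 with an adjusted p of 0.0622. Col5a3, a minor type V chain, was the one fibrillar probe with a positive value. It was at 5.19, 5.54 and 5.15 in hSRY-OFF, where 1 array detected it, and at 5.68, 5.76 and 5.46 in hSRY-ON, where all 3 did. The groups overlapped, and the fold change of 0.34 (SE 0.13) had an adjusted p of 0.214. It was 0.09 when no background was removed and 0.17 at the larger offset.

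**Figure D3:**
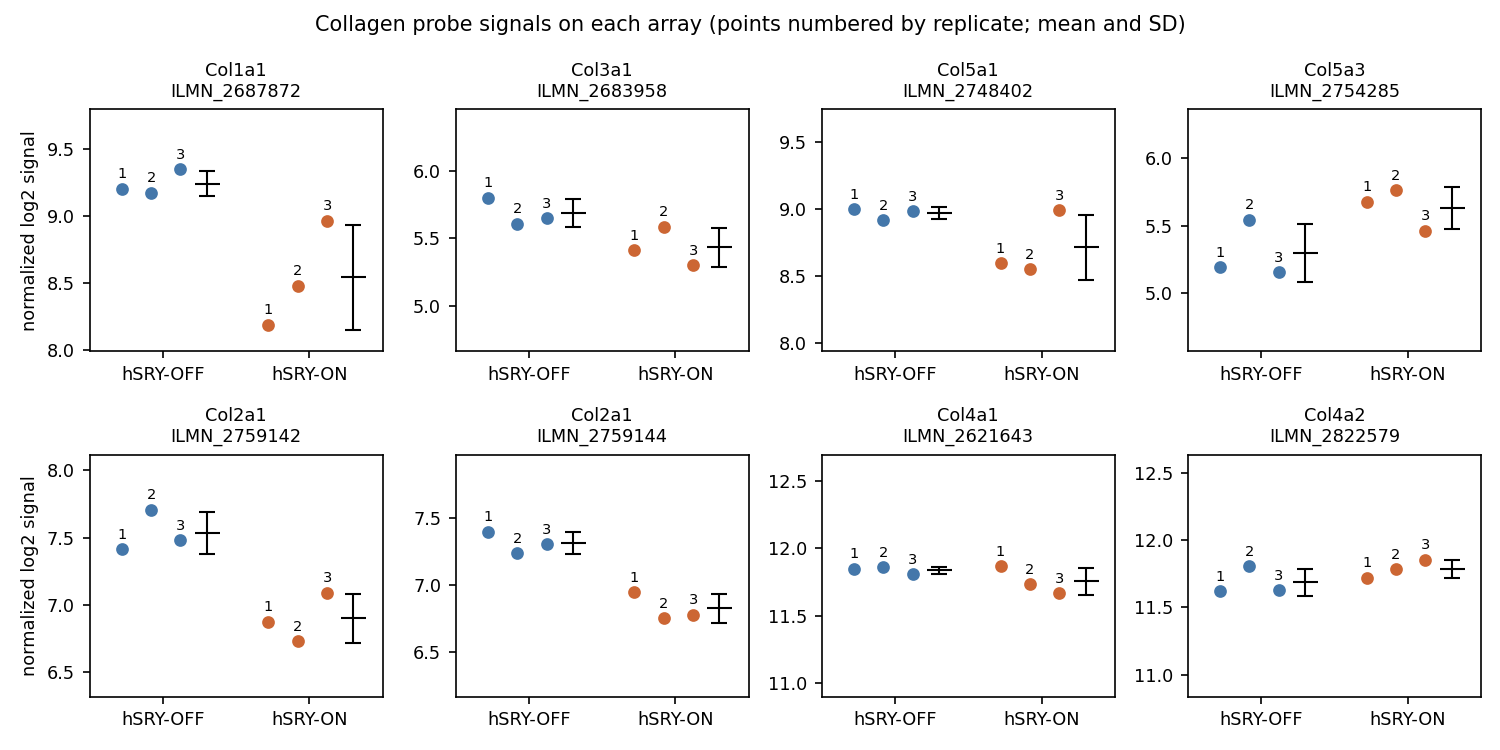
Normalized log2 signal (vertical axis, the same span in every panel) of 8 collagen probes on each array, numbered by replicate, with the group mean and SD at the right of each group. The groups do not overlap for Col1a1, Col3a1 and the 2 Col2a1 probes, and they overlap for Col5a1, Col5a3, Col4a1 and Col4a2.

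Since the transgene encodes a transcription factor of the SOX family, which binds a short AT-rich core, the letters of the collagen promoters were set beside these values. RefSeq promoter windows of assembly GRCm38.p6, each with 250 bases before and 50 after an annotated start, were matched by symbol for 29 of the 36 collagen symbols and gave 32 windows. Col1a1, Col2a1 and Col5a2 were among the symbols without a window. The 250 bases before the start of a pair of fibrillar genes are shown here for their unlike base composition, at chr1:45311288-45311537 for Col3a1 and chr2:27886175-27886424 for Col5a1, both on the plus strand and 5′ to 3′. Capitals mark AACAAT or its reverse complement (the SOX and SRY core) and TATAAA (the TATA box) in Col3a1, and GGGCGG or its reverse complement (the GC box) in Col5a1.
Col3a1: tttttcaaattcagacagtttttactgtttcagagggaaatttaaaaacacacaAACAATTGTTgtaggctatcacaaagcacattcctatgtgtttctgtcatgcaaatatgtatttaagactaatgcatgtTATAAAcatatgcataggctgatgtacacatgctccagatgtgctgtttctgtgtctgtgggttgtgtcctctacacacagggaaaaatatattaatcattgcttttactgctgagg
Col5a1: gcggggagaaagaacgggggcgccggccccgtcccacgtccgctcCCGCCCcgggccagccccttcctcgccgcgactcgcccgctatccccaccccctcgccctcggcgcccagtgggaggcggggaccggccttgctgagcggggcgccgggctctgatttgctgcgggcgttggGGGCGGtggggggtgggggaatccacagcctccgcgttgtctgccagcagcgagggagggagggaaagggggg

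The windows differed in base composition, with a GC content of 37.7% in Col3a1 and 75% in Col5a1 against a median of 52.7% over all promoters. In Col3a1 the letters AACAAT began 196 bases before the annotated start, overlapped by a match on the opposite strand, and TATAAA began 117 bases before it. Searched on both strands, AACAAT was found in 1 of the 32 collagen windows (3.12%), that of Col3a1, and in 10.7% of all 32851 promoter windows. GGGCGG was found in 59.4% of collagen windows and 35.7% of all, CCAAT in 37.5% and 37.4%, and TATAAA in 15.6% and 13.6%. These are matches of letters within short windows, and no binding was measured.

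The basement membrane collagens showed small differences, and none of the 6 tested probes was called. Col4a1 and Col4a2 encode the chains of the main type IV network. Col4a1 was at 11.85, 11.86 and 11.81 in hSRY-OFF and 11.87, 11.74 and 11.67 in hSRY-ON. Col4a2 was at 11.62, 11.80 and 11.63 in hSRY-OFF and 11.72, 11.78 and 11.85 in hSRY-ON. The groups overlapped for both genes, which had opposite signs. The fold change of Col4a1 was -0.08 (95% interval -0.28 to 0.11, adjusted p 0.622). That of Col4a2 was 0.10 (95% interval -0.11 to 0.31, adjusted p 0.554). With 1 array left out, the value of Col4a1 lay between -0.14 and -0.037 (the extremes were the fits that left out hSRY-ON array 1 and hSRY-ON array 3, in that order) and that of Col4a2 between 0.065 and 0.16 (0.065 without hSRY-ON array 3 and 0.16 without hSRY-OFF array 2). In the RefSeq annotation the Col4a1 and Col4a2 transcripts start on opposite strands and share 22 bases at their starts.

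Col4a5 and Col4a6 encode chains of a second type IV network and also lie head to head, with annotated starts 1343 bases apart. Col4a5 was at 8.33, 8.34 and 8.21 in hSRY-OFF and 7.88, 8.33 and 8.17 in hSRY-ON, with overlapping groups and a fold change of -0.17 (SE 0.13, adjusted p 0.485). Leaving out hSRY-ON array 1 gave -0.046, and leaving out array 2 of that group gave -0.27. Col4a6 was at 5.74, 5.35 and 6.01 in hSRY-OFF and 5.88, 5.77 and 5.60 in hSRY-ON. Its fold change of 0.05 (SE 0.17, adjusted p 0.902) had no stable sign, being -0.13 without hSRY-OFF array 2 and -0.02 without hSRY-ON array 1. When hSRY-ON array 3 was left out it was 0.12.

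Type XVIII collagen was read by 2 tested probes, both with negative fold changes. Probe ILMN_2937542 was at 6.44, 6.63 and 6.52 in hSRY-OFF and 6.15, 6.21 and 6.36 in hSRY-ON, and its groups did not overlap. Its fold change was -0.29 (SE 0.094) with an unadjusted p of 0.0169 and an adjusted p of 0.146. The size of this value also rested on the background step, being -0.10 (unadjusted p 0.127) without it and -0.17 at an offset of 50. Probe ILMN_2735184 was at 10.23, 10.26 and 10.30 in hSRY-OFF and 10.02, 9.93 and 10.28 in hSRY-ON, where array 3 again lay among the controls. Its value of -0.19 (SE 0.11) had an adjusted p of 0.366. It was -0.28 without hSRY-ON array 3 (adjusted p 0.119) and -0.11 without hSRY-ON array 2. The Col18a1 probe ILMN_1225839 was detected on 1 array and was not tested.

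Among the other collagens, both probes of Col2a1, the cartilage fibril chain, were lower in every hSRY-ON array than in any hSRY-OFF array. Probe ILMN_2759144 was at 7.40, 7.23 and 7.30 in hSRY-OFF and 6.95, 6.75 and 6.78 in hSRY-ON. Its log2 fold change was -0.49 (SE 0.091, 95% interval -0.70 to -0.27), 71.4% of the hSRY-OFF level, with an adjusted p of 0.0479. Probe ILMN_2759142 was at 7.42, 7.71 and 7.48 in hSRY-OFF and 6.88, 6.73 and 7.09 in hSRY-ON. Its fold change was larger, -0.64 (SE 0.12, 95% interval -0.93 to -0.34) or 64.4% of the hSRY-OFF level, but its adjusted p was 0.0522. The pair of probes thus fell on either side of the threshold with similar values.

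The call and the size of the Col2a1 difference depended on the processing. Without background correction the fold changes were -0.23 for ILMN_2759144 and -0.32 for ILMN_2759142, and with an offset of 50 they were -0.33 and -0.45. The adjusted p of ILMN_2759144 ranged from 0.0223 to 0.134 over 15 alternatives and was under the threshold in 6 of them, and it lay between 0.0704 and 0.134 whichever array was left out. For ILMN_2759142 it ranged from 0.00963 to 0.146 over 16 alternatives, 8 of which gave a call. Without hSRY-ON array 3 the fold changes were -0.46 for ILMN_2759144 (adjusted p 0.0704) and -0.73 for ILMN_2759142 (adjusted p 0.0378). Leaving out any of the other arrays gave ILMN_2759142 an adjusted p of 0.110 to 0.146. Every alternative kept the negative sign of both probes.

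Col15a1 encodes a collagen related to type XVIII that lies at the outer face of basement membranes. It was at 7.75, 7.73 and 7.78 in hSRY-OFF and 7.56, 7.58 and 7.17 in hSRY-ON. The groups did not overlap, and here hSRY-ON array 3 was the lowest of all arrays, unlike in Col1a1. The fold change was -0.32 (SE 0.12) with an adjusted p of 0.201 and no call in any of 16 alternatives. Without hSRY-ON array 3 it was -0.18 on the log2 scale, and without background correction -0.17.

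The remaining 13 tested probes of this class had overlapping groups and fold changes between -0.14 and 0.20. They included Col6a1 and Col6a2, chains of the beaded microfibrils of type VI collagen, with -0.11 and -0.05 for a pair of Col6a1 probes and -0.13 for Col6a2. With 1 array left out these values lay between -0.22 and -0.051, between -0.17 and 0.072 and between -0.19 and -0.022, so that 1 of the Col6a1 probes had no stable sign. Without hSRY-ON array 3 the Col6a1 probes were at -0.22 and -0.17. Col9a1 and Col9a2, which decorate type II fibrils in cartilage, had 0.20 and -0.08. With 1 array left out, Col9a1 lay between 0.0034 (without hSRY-ON array 3) and 0.47, and Col9a2 between -0.14 and -0.020. The 3 probes of Col25a1, a transmembrane collagen of neurons, had values of -0.03, 0.08 and 0.04, and none of them kept its sign when each array was left out in turn. Col23a1, another transmembrane collagen, was at -0.14, and Col7a1, which forms the anchoring fibrils of skin, at 0.17, with a range of 0.022 to 0.34 over the fits with 1 array left out. Col12a1 and Col16a1, which associate with fibrils, had -0.13 and -0.03. With 1 array left out, Col12a1 lay between -0.27 and 0.0048 and Col16a1 between -0.095 and 0.064, and neither kept its sign throughout. Col11a2, detected on 1 hSRY-OFF and 2 hSRY-ON arrays, had 0.06 with a wide interval of -0.62 to 0.73, and its sign changed with the array left out.

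Collagen chains need a set of enzymes and chaperones to be hydroxylated, folded, trimmed and crosslinked. Of this list, 30 probes of 22 symbols were tested, and 1 was called higher, against 0.844% of all tested probes. Lox, the lysyl oxidase that crosslinks collagen and elastin, was at 7.61, 7.72 and 7.56 in hSRY-OFF and at 8.16, 8.31 and 8.29 in hSRY-ON. It was higher in every hSRY-ON array, by 0.62 (SE 0.086, adjusted p 0.0294), and so ran opposite to Col1a1. Without any 1 array other than hSRY-ON array 3 its adjusted p was 0.0732 to 0.109. The value of Lox was 0.39 without background correction and 0.50 with an offset of 50. The median of the list was -0.08, with 19 of 30 values negative.

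In the same list, 3 genes that were chosen after their values were seen lay near the threshold. Serpinh1 encodes HSP47, the chaperone specific to procollagen. It was at 9.07, 8.69 and 8.91 in hSRY-OFF and 7.87, 8.26 and 8.62 in hSRY-ON, with hSRY-ON array 1 lowest and array 3 highest as in Col1a1, and it had a log2 fold change of -0.64 (SE 0.19) at an adjusted p of 0.129. Pcolce, an enhancer of procollagen C-terminal cleavage, had -0.46 (SE 0.12, adjusted p 0.091). Leprel2, now P3h3, a member of the prolyl 3-hydroxylase family, had 0.40 (SE 0.10, adjusted p 0.0925). The groups did not overlap for any of the 3 genes, and they did not move in one direction.

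Of the collagen receptors, 5 probes of 4 symbols were tested and none was called or had an unadjusted p under 0.05 in the limma fit. Their median fold change was -0.12. The lowest p-values were those of Itgb1, the shared beta chain of the collagen-binding integrins (-0.28, adjusted p 0.355), Itga1 (-0.21, adjusted p 0.55) and Itga11 (-0.12, adjusted p 0.60), and the groups overlapped for each. Of the genes of collagen degradation and its inhibitors, 10 probes of 9 symbols were tested, with a median of 0.15. From this list 1 probe was called higher, against 0.844% of all tested probes. Timp4, an inhibitor of matrix metalloproteinases, was at 9.83, 9.86 and 9.84 in hSRY-OFF and 10.44, 10.39 and 10.24 in hSRY-ON. It was higher by 0.52 (SE 0.083, adjusted p 0.0348). Without any 1 array other than hSRY-ON array 3 the adjusted p was 0.086 to 0.117.

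The non-collagen components of basement membranes were set beside type IV collagen in a list of which 13 probes of 12 symbols were tested. None was called, and in the limma fit 2 probes with positive and 3 with negative values had an unadjusted p under 0.05. The shares of all tested probes at that level were 10.1% higher and 10.9% lower. The lowest p-values belonged to the laminin chain Lama1 (0.48, adjusted p 0.0855), to Sparc, a collagen-binding matrix protein (0.33 for ILMN_3059326, adjusted p 0.104), and to the laminin chain Lamc3, all with groups that did not overlap. Lamc3 had the opposite sign to the other two. It was at 7.51, 7.28 and 7.54 in hSRY-OFF and 6.35, 6.56 and 7.20 in hSRY-ON (-0.74, adjusted p 0.115). Its value was -0.99 (adjusted p 0.0252) without hSRY-ON array 3 and -0.57 (adjusted p 0.254) without hSRY-ON array 1. Without any of the other arrays the adjusted p was 0.199 to 0.244. When no background was removed, Lamc3 had -0.34 and Lama1 0.24. The median of the list was 0.11, against -0.13 for the basement membrane collagens.

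**Figure D4:**
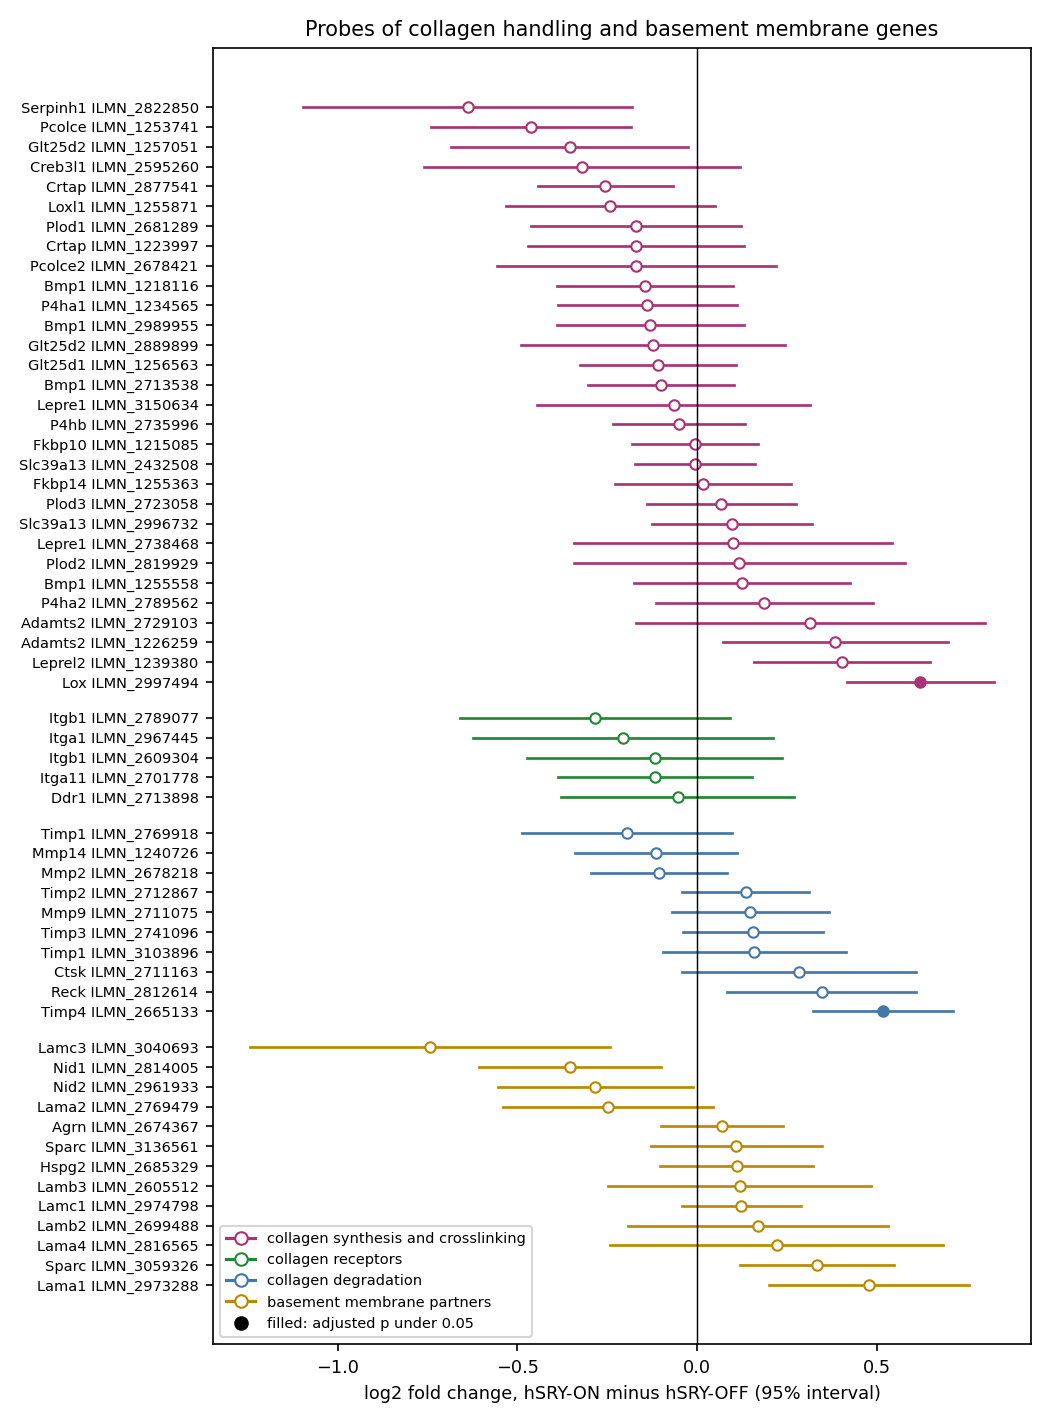
Log2 fold change (horizontal axis, hSRY-ON minus hSRY-OFF) with 95% intervals for the tested probes of 4 lists of genes that make, bind, degrade or accompany collagen. The filled points are Lox at 0.62 and Timp4 at 0.52, and each list other than the receptors holds probes on both sides of 0.

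Markers of the cell types that make collagen were read on the same arrays. Of 12 meningeal fibroblast markers 11 were detected and none was called, and their summed normalized signal was 7947 to 8332 in hSRY-OFF and 6561 to 8098 in hSRY-ON. The remaining marker, Foxd1, was detected on fewer than 3 arrays. Among the genes of this list, the small leucine-rich proteoglycan Lum, which binds collagen fibrils and was chosen after its values were seen, was at 8.17, 8.39 and 8.38 in hSRY-OFF and 6.73, 7.19 and 7.76 in hSRY-ON (-1.09, SE 0.24, adjusted p 0.0682). Ogn, a related proteoglycan chosen in the same way, had -0.54 (adjusted p 0.187). Without hSRY-ON array 3, Lum had -1.36 (adjusted p 0.0252) and Ogn -0.77 (adjusted p 0.0357). Without hSRY-ON array 1, Lum had -0.84 (adjusted p 0.124) and Ogn -0.35 (adjusted p 0.36). Leaving out any of the other arrays gave adjusted p-values of 0.142 to 0.174 for Lum and 0.29 to 0.348 for Ogn. When no background was removed, Lum had -0.63. Of the 14 tested probes of the list, 7 had positive and 7 negative values, with 3 and 4 at an unadjusted p under 0.05 in the limma fit. The shares of all tested probes at that level were 10.1% and 10.9%. In Col1a1, Serpinh1, Lum, Ogn and Lamc3, a set put together after the values were seen, hSRY-ON array 1 was lowest and array 3 highest of the hSRY-ON group. This order was found for 5 of the 26 collagen probes (19.2%), for 7 of the 14 meningeal probes and for 18.6% of all tested probes, and Col3a1 and Col15a1 had array 3 lowest. The part of the amount of meningeal tissue in the Col1a1 values was not tested.

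**Figure D5:**
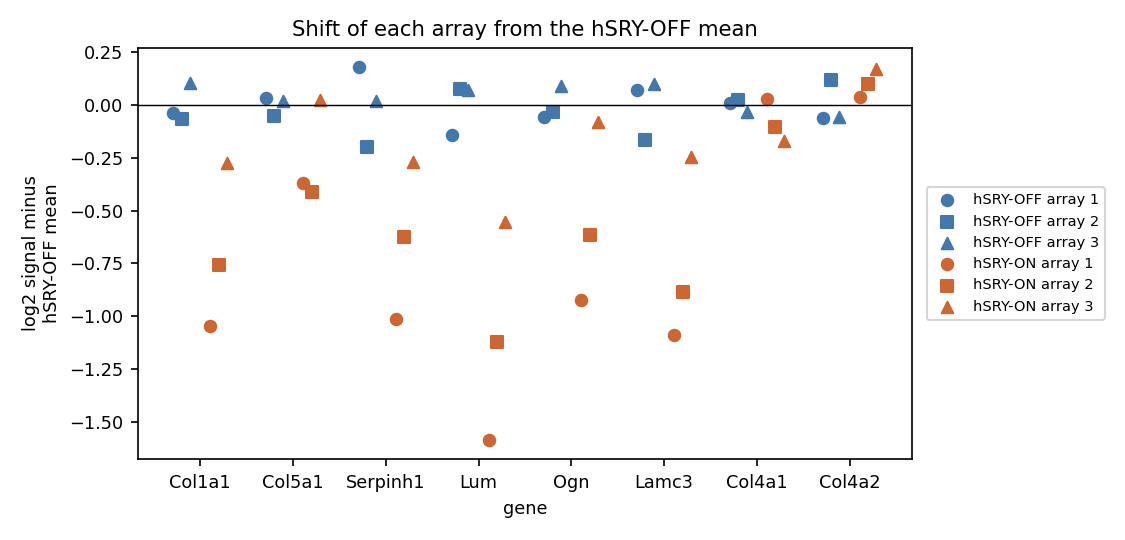
Shift of each array from the hSRY-OFF mean in log2 signal (vertical axis) for 4 collagen genes and for Serpinh1, Lum, Ogn and the laminin chain Lamc3 (horizontal axis), with 3 arrays per group told apart by marker shape. In Col1a1, Serpinh1, Lum, Ogn and Lamc3 hSRY-ON array 1 is the lowest and hSRY-ON array 3 the nearest to the controls, whereas Col4a1 and Col4a2 stay close to 0 on all arrays.

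Sums of pericyte and endothelial markers were lower on every hSRY-ON array than on any hSRY-OFF array, but the pericyte medians by array overlapped. The 8 pericyte markers, all detected, summed to 4145 to 4276 in hSRY-OFF and 2925 to 3449 in hSRY-ON, with 1 called probe, Vtn (vitronectin), at -0.59 (adjusted p 0.0386). Vtn was the brightest of these probes, and its adjusted p was 0.0955 to 0.126 without any 1 array other than hSRY-ON array 3 and 0.0606 with no filter on dim probes. The median of the 8 was -0.11, with 6 negative and 2 positive values. Of these, 2 and 0 had an unadjusted p under 0.05 in the limma fit, against 10.9% lower and 10.1% higher of all tested probes. Median pericyte shifts by array were -0.045, 0.0051 and 0.060 in hSRY-OFF and -0.042, -0.19 and -0.12 in hSRY-ON. For endothelium 10 of 12 markers were detected, all but Kdr and Slco1a4, with sums of 8556 to 8970 and 7480 to 8198 and no call. Single endothelial probes went both ways, from -0.63 for the receptor gene Tie1 to 0.64 for Ly6c1, both named after their values were seen. Of 11 probes 7 were negative and 4 positive, with 5 and 3 at an unadjusted p under 0.05 in the limma fit, against 10.9% and 10.1% of all. Median endothelial shifts by array were -0.012, -0.0091 and 0.073 in hSRY-OFF and -0.089, -0.21 and -0.16 in hSRY-ON, which did not overlap. For vascular smooth muscle 3 of 6 were detected, all but Tagln, Myh11 and Cnn1, with sums of 1258 to 1345 and 1147 to 1401. Col4a1 and Col4a2, which these cells make, did not show the separation seen in the pericyte and endothelial sums, and the part of vascular content in the collagen values was not tested.

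For Col2a1 the list of bone, tooth and cartilage genes is the nearest set of markers. Of its 16 genes on the array, 6 were detected on at least 3 arrays, and the cartilage genes Matn1, Matn3 and Comp and the bone regulator Runx2 were not. The sums of the list were 321 to 375 in hSRY-OFF and 265 to 573 in hSRY-ON, and overlapped. The median of the 6 fold changes was -0.31, with 5 negative values, and the median shifts by array were -0.04, -0.12 and 0.19 in hSRY-OFF and -0.21, -0.18 and -0.47 in hSRY-ON, which did not overlap. Acan, the cartilage proteoglycan aggrecan, was detected on 5 arrays and had -0.33 (SE 0.13, adjusted p 0.199), and Spp1, osteopontin, detected on 5 arrays as well, was called at -0.84 (adjusted p 0.0327). The value of Spp1 was -0.25 without background correction and -0.44 with an offset of 50, and it was not among the probes detected on all arrays at p under 0.01, so it was not tested under that stricter filter. The one positive value of the 6 was larger than these, 1.74 (SE 0.69, adjusted p 0.214) for the enamel gene Amelx, which was detected on 1 hSRY-OFF and 2 hSRY-ON arrays and had overlapping groups. Markers of choroid plexus, an epithelium with its own stroma, had higher sums in hSRY-ON, 19648 to 24732 against 16254 to 19266 in hSRY-OFF, with all 8 genes detected. Of its 11 probes 1 was called higher, ILMN_2980661 of Aqp1 (0.67, adjusted p 0.0348). The value of this probe was 0.43 without background correction. In the limma fit 7 of the 11 were higher at an unadjusted p under 0.05. Over all tested probes 0.844% were called higher and 10.1% were higher at that unadjusted level. Skeletal muscle (3 of 7 markers detected), neuronal (3 of 5) and erythroid (4 of 5) lists held 1, 0 and 0 called probes. The shares called over all tested probes were 0.844% higher and 1.32% lower. The called probe measures Acta1, skeletal actin, and was higher by 0.43 (adjusted p 0.0479), a call that was lost whichever array was left out (adjusted p 0.0605 to 0.13), with median scaling (0.0549) and with no filter on dim probes (0.0812). The summed skeletal muscle signal was 873 to 942 in hSRY-OFF and 1052 to 1138 in hSRY-ON, which did not overlap. The neuronal sums (36299 to 40363 and 38533 to 40805) and the erythroid sums (32650 to 37127 and 29212 to 36514) overlapped. Among the calls of these marker lists, the adjusted p of Spp1 was 0.0725 to 0.113 and that of the Aqp1 probe 0.0784 to 0.113 when an array other than hSRY-ON array 3 was missing. Snap25 and Nefl were the neuronal markers that did not reach 3 arrays. The part of any of these cell types in the Col2a1 values was not tested.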

How the data were processed

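The authors deposited, for each probe on each array, a mean bead signal intensity on a linear scale, not normalized, and a detection p-value. Total RNA had been amplified to biotinylated cRNA before hybridization. TCC, the package given in the study's methods without its settings, was not used here, and the submitters' processing notes list limma. Groups and replicate numbers were taken from the sample labels.

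The analysis was run with limma 3.58.1 in R 4.3.3. Intensities were corrected with normexp (nec, offset 16), using negative-control means and SDs inferred from the detection p-values, put on the log2 scale and quantile normalized. Probes detected (p under 0.05) on 3 or more arrays were tested with lmFit and eBayes (two-sided), with group as the only term, Benjamini-Hochberg adjustment over 14215 probes and a threshold of 0.05 on the adjusted p for a call. Adjusted p-values in the text come from this fit unless an alternative is named. The offset shrinks fold changes of dim probes, and 3 arrays per group limit the precision. Probes of a gene were tested separately.

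The collagen members and all gene lists were chosen with earlier results of these data known, and lists are described by counts and medians, without a test. Collagens described array by array were the called probes, those whose groups did not overlap, and the tested probes of Col1, Col3, Col4, Col5 and Col18 genes. The other tested collagens were given more briefly by fold change, and Col10a1 and Col17a1 were named as examples of undetected ones. Of each of the 4 lists of genes that make, bind, degrade or accompany collagen, the called probes, or with none called the 3 with the lowest p, were named. Any other gene outside the collagens, markers included, was named after its values were seen. Leprel4, Ppib, Adamts14, Loxl2, Itga10, Gp6, Lama3, Lama5 and Fn1 of these lists were not analysed here, and 1 further gene of the basement membrane list is not reported here. In simulated data made from these arrays, in which 200 probes were shifted by a log2 value of 1, 195 changed probes were among the 14512 tested, 151 (77.4%) were recovered and 14 of 165 calls (8.48%) were of unchanged probes. The shift of 1 was larger in size than any collagen fold change (-0.69 to 0.34), and noise was drawn independently for each probe. The recovery therefore does not give the power to call the collagen differences. Alternatives covered background correction, normalization, filters, the variance prior, array weights, 1 probe per symbol, a replicate block and leaving out each array. Same-numbered arrays had correlations of deviations of 0.025 to 0.040, too low to treat the numbers as pairs. Promoter windows are from RefSeq (GRCm38.p6). Plots were made in Python 3.11.15 (matplotlib 3.10.9).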

Additional observations from a re-analysis of the deposited data

How the results depend on the processing

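The number of collagen probes called higher was 0 under all alternatives run. The number called lower, 1 as reported, was 3 without background correction, 3 with normexp fitted on the signals at an offset of 50, 3 with a trended and robust prior, 2 with array weights, 2 with detection p-values under 0.01 on all arrays, 0 with no filter on dim probes, and 0 to 2 when 1 array was left out. The calls were of Col1a1 and Col2a1 probes. The accompanying lists held 2 called probes, which became 9 without background correction, 6 with the offset of 50, 9 with the trended prior, 3 with the stricter filter, 1 with median scaling, 1 with no filter and 0 to 3 with 1 array left out. With the replicate number as a block, called probes fell to 0 for collagens and 0 for the lists, and the lowest collagen adjusted p was 0.105. Each array correlated best with its own number, which is a hint from the data and not part of the design. In the whole table, calls went from 308 to 1317 without background correction, 860 with the offset of 50, 1447 with the trended prior, 705 with the stricter filter, 480 with array weights, 123 without a filter, 0 with the block and 0 to 417 with 1 array left out.

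The fibrillar median of -0.25 was -0.13 without background correction, -0.17 with the offset of 50, -0.066 without a filter and -0.47 with the stricter filter, which left Col1a1 and Col5a1. The basement membrane median of -0.13 was -0.17 with the stricter filter and -0.081 with 1 probe per symbol. The median of other collagens, -0.066, was -0.048 to -0.17 with 1 array left out, where -0.17 belonged to the fit without hSRY-ON array 3, and it was -0.13 with the stricter filter and -0.10 with median scaling. The Col4a6 fold change ran from -0.13 to 0.20 in these fits. The 26 probes detected became 20 when detection on 3 or more arrays was set at a p-value under 0.01, and 21 when a p-value under 0.05 was asked of all arrays. The stricter filter, under 0.01 on all arrays, left 17. The causes of these shifts were not tested.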
